A study of Mus musculus with 39 samples.

Results

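The genes described here encode the proteins that form, limit and dissolve a blood clot: the 3 chains of fibrinogen, the clotting factors and their cofactors, the contact system, the anticoagulants, the proteins of fibrinolysis and the enzymes of the vitamin K cycle, with a few related proteases and the thrombin receptor F2r. The 36 genes were taken by name, each through the probes whose RefSeq accession belongs to it, and where a gene had more than 1 probe (11 genes) the probe with the highest mean liver intensity stood for it. All 36 had a probe, of 17016 genes with a RefSeq probe on the array.

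Each of 39 livers from C57BL6/J mice gave RNA for 1 two-colour Agilent array of the whole mouse genome, with the liver in Cy-5, a common reference RNA in Cy-3, and no dye swap. Aggressor-exposed (AggE) mice had spent daily 6-h sessions caged inside the home cage of an aggressor mouse, with brief contact, for 5 or 10 days. Control (Ctrl) mice had been caged and deprived of food on the same schedule with no aggressor, and by the study's methods all mice were male and singly housed. The 8 groups were 4 Ctrl and 5 AggE mice taken 24 hrs after the 5-day regimen, 4 and 5 taken 24 hrs after the 10-day regimen, 4 and 5 taken 1.5 wks after the 5-day regimen, and 6 and 6 taken 4 wks after the 10-day regimen. The labels disagree in places. At 1.5 wks, all 5 AggE titles and the title of Ctrl mouse 4 carry a 10, as those of 10-day mice do, and the descriptions of all 5 AggE mice at 24 hrs after 5 days begin with 1 day. The liver channel gives 5 days in each case and was followed here. Groups are named below by the time since the last session and by the days of exposure. Mice also sat through a partition test near an aggressor shortly before tissue was taken, so no group is free of recent handling. Whole liver was used, and in whole tissue fewer cells of a type and less RNA per cell cannot be told apart.

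Most clotting proteins are made by hepatocytes and secreted into plasma. A cascade of proteases ends in thrombin, which cuts fibrinogen to fibrin, factor XIII then cross-links the fibrin, and plasmin, cut from plasminogen, dissolves it. Fibrinogen is also an acute phase protein, whose 3 chain genes lie next to each other and are known to be induced in hepatocytes by interleukin-6 and glucocorticoids.

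Because these genes are known for shared control, the stretches upstream of the fibrinogen chain genes, and of F13b, the member with the smallest adjusted p in the data below, are shown from RefSeq on the GRCm38.p6 build, 5′ to 3′ and ending at the base before the transcription start. They are Fga at chr3:83025903-83026152 on the plus strand, Fgb at chr3:83049864-83050113 on the minus strand, Fgg at chr3:83007474-83007723 on the plus strand and F13b at chr1:139501457-139501706 on the plus strand. Capitals mark every match, on either strand, to 4 motifs: the interleukin-6 response element core CTGGGAA, the C/EBP motif TTNNGNAA, the HNF1 core GTTAAT and the glucocorticoid receptor core TGTTCT, of which C/EBP can match both strands at 1 place.
Fga: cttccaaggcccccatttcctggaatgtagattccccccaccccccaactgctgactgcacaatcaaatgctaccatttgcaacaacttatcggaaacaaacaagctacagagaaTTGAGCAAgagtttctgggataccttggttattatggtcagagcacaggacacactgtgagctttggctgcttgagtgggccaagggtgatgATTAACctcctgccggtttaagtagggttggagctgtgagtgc
Fgb: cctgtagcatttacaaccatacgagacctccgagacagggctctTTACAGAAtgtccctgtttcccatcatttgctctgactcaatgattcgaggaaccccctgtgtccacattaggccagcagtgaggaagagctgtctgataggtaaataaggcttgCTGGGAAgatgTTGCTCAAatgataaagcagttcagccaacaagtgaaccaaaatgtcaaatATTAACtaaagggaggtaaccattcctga
Fgg: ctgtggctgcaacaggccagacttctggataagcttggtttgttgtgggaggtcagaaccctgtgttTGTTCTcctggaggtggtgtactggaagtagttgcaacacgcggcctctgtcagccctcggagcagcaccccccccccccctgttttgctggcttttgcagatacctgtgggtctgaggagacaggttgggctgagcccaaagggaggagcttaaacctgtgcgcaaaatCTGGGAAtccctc
F13b: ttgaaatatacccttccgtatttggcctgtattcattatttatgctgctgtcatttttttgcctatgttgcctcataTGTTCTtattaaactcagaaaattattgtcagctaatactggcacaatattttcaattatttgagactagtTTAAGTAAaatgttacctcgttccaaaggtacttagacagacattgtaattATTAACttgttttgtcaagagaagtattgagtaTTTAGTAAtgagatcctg

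CTGGGAA began at position -91 from the start in Fgb and at -13 in Fgg, and was not in the Fga or F13b window. TTNNGNAA was in Fga, in Fgb and in F13b, GTTAAT was in the same 3, and TGTTCT was in Fgg and F13b. Windows of the 250 bases before the start were searched for the 29 members with an entry, among 32851 promoters in the table. CTGGGAA was in 5 of the 33 windows of these genes (15.2%, against 9.1% of all promoters), TTNNGNAA in 17 (51.5% against 36.8%), GTTAAT in 8 (24.2% against 6.43%) and TGTTCT in 10 (30.3% against 16.1%). These are matches of letters and do not show binding. Vwf, Proc, Plg, Kng1, Plau, Thbd and Plat had no entry.

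Detection set what could be compared. Each value below is a log2 ratio of liver to reference, after background correction, loess within arrays and quantile normalization between arrays. In Cy-5, 19 of the 36 members were well above background (the mark of Feature Extraction) on all 39 arrays, 35 on 1 array or more and 1, Plau (urokinase), on none, although the other Plau probe, about as dim, was on 1 array. Over the arrays the share of all probes well above background ran from 15.2% to 70.4%. The 11 slides held Ctrl and AggE mice together in 1 case at 1.5 wks and in 1 case at 4 wks. At both 24 hr points slide and group cannot be told apart.

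A change was called where the Benjamini-Hochberg adjusted p of limma's moderated t, over 25903 probes in 1 fit of all 8 groups, was 0.05 or less. At 24 hrs after 5 days 0 of 36 members were called, where 3.25% of all probes were, and 17 were higher and 19 lower in AggE mice (median log2 fold change -0.02). At 24 hrs after 10 days 0 were called (0.0734% of all probes), 23 were higher and 13 lower, and the median was 0.06. Neither did limma call a member at 1.5 wks after 5 days (0% of all probes), where 24 were higher and 12 lower, with a median of 0.06. By 4 wks after 10 days 2 of 36 were called (3.42% of all probes), F13b higher (1.25% of probes were called higher) and Plg lower (2.17% called lower), with 14 higher, 22 lower and a median of -0.14. The median over all probes lay between -0.0058 and 0.011 in these 4 comparisons.

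With no adjustment, 5, 1, 0 and 12 members had a p at or under 0.05 in the same order of comparisons, beside 17.5%, 2.81%, 2.42% and 20.4% of all probes. A rule that asked for at least 2-fold and for p at or under 0.05 before adjustment took 0 members at 24 hrs after 5 days (0.232% of probes), 0 at 24 hrs after 10 days (0.131%), 0 at 1.5 wks (0.027%) and 1, Fgg, at 4 wks (0.243%).

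**Figure D1:**
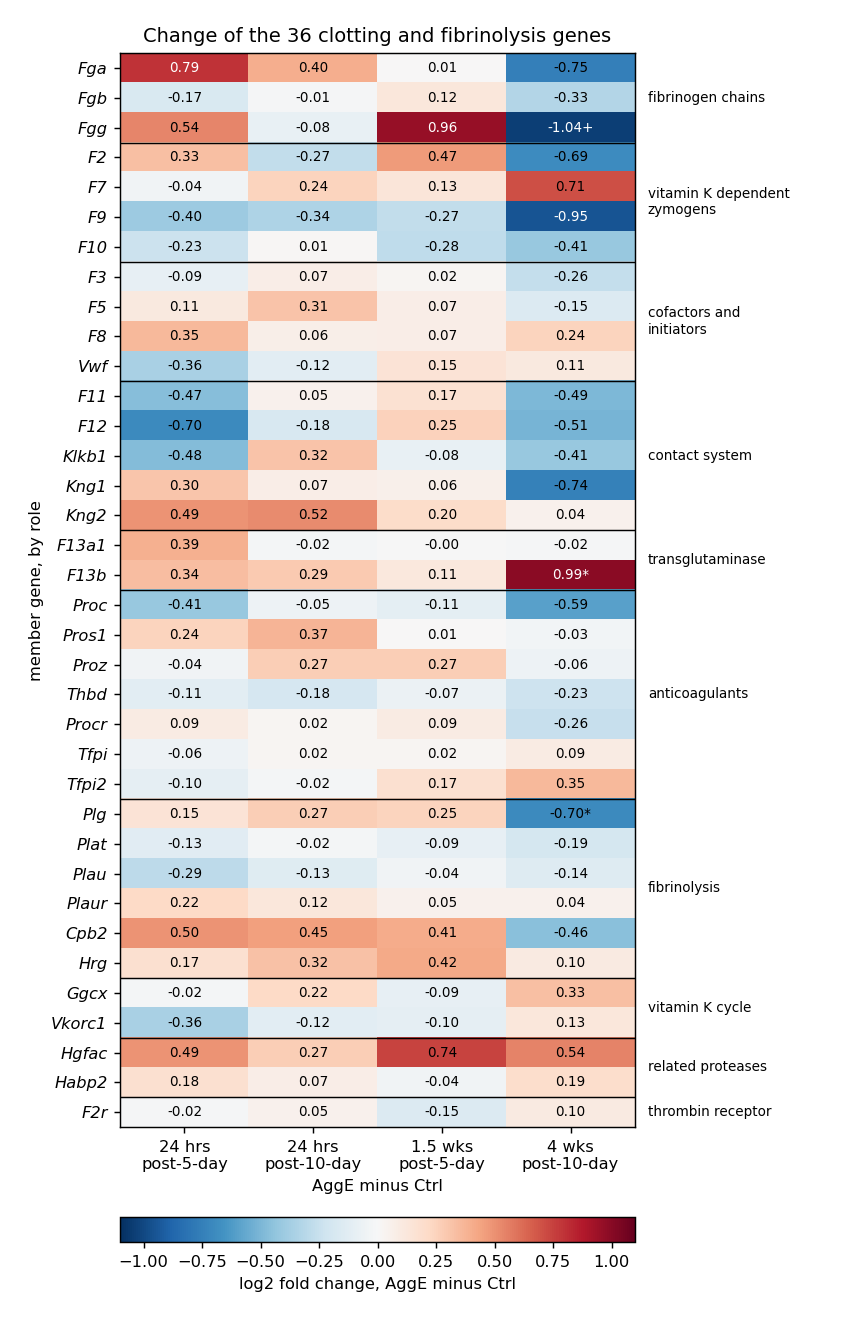
Log2 fold change, AggE minus Ctrl, of the 36 genes (rows, grouped by role) at the 4 time points (columns), red for higher and blue for lower in AggE mice. Spots not well above background are drawn too. A star marks an adjusted p of 0.05 or less and a plus sign at least 2-fold with p at or under 0.05 before adjustment. Both stars, F13b and Plg, and the plus sign, Fgg, stand in the column for 4 wks.

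None of the fibrinogen chains passed the test at either 24 hr point. Fga, the alpha chain, was at 1.96, 3.12, 4.16 and 3.45 in the Ctrl mice and 4.07, 3.80, 3.51, 4.04 and 4.40 in the AggE mice at 24 hrs after 5 days. All AggE mice lay within the upper part of the Ctrl range or just above it, and the log2 difference was 0.79 (95% interval -0.42 to 2.01, limma adjusted p = 0.557). Over 25 refits with other settings or an array left out, this difference ran from -0.03 to 1.63. After 10 days, the Ctrl values of 3.72, 2.94, 3.97 and 4.27 overlapped with 3.87, 4.23, 3.73, 3.92 and 4.86 in AggE mice (difference 0.40, interval -0.82 to 1.61).

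Fgb, the beta chain, held 7.29, 7.61, 7.24 and 7.0 in Ctrl against 6.78, 7.35, 7.98, 7.20 and 6.28 in AggE mice at 24 hrs after 5 days, so the AggE mice spread to both sides of the Ctrl mice (difference -0.17, interval -0.67 to 0.34). After 10 days its Ctrl values were 6.12, 6.61, 6.35 and 6.62, and its AggE values were 6.92, 6.21, 6.06, 6.37 and 6.52. The groups overlapped there too, with a difference of -0.01 (interval -0.51 to 0.49).

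Fgg, the gamma chain, was at 7.54, 7.69, 7.78 and 8.08 in Ctrl and at 8.69, 8.26, 8.29, 8.73 and 7.58 in AggE mice at 24 hrs after 5 days. In 4 of 5 AggE mice it was above every Ctrl mouse, yet the difference of 0.54 had an interval of -0.47 to 1.54 (limma adjusted p = 0.654). After 10 days, also at 24 hrs, it was 7.38, 8.06, 7.96 and 8.13 in Ctrl and 8.80, 7.43, 7.54, 7.77 and 7.49 in AggE mice, and only AggE mouse 1 stood above the Ctrl range (difference -0.08, interval -1.08 to 0.93). With intervals that reach 2.01 for Fga and 1.54 for Fgg after 5 days, a rise of these 2 transcripts was not detected there, which does not make it absent, whereas the intervals of Fgb ended at 0.34 and 0.49.

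A list of 15 acute phase genes, set beside them for comparison, had 8 members called higher at 24 hrs after 5 days and 5 called higher at 24 hrs after 10 days, with medians of 1.34 and 1.05. Of all probes, 1.58% and 0.0656% were called higher at those points. Fgl1, a fibrinogen-like liver protein that is no chain of fibrinogen, differed by 2.91 (limma adjusted p = 3.56e-06) and 2.20 (adjusted p = 0.000746) at those points. It differed by 0.15 at 1.5 wks and by -0.15 at 4 wks. Its 24 hr change exceeded its 1.5 wk change by 2.76 (adjusted p = 0.0107) and, after 10 days, its 4 wk change by 2.36 (adjusted p = 0.0253). The median over the 3 chains was 0.54 and -0.01 at the 24 hr points. At 1.5 wks the 15 acute phase genes had a median of 0.03, with 8 higher, 7 lower and 0 called. At 4 wks their median was -0.23, with 5 higher, 10 lower and 1 called, higher (1.25% of all probes were called higher). Whether the chains and these genes differ in response was not tested.

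At 1.5 wks Fga and Fgg spread widely, Fgb did not, and the days of exposure rest on the liver channel's label against the titles of 5 AggE and 1 Ctrl mice. In Ctrl mice Fga was 1.14, 2.38, 1.61 and 3.55, and in AggE mice 1.16, 3.47, 2.07, 2.18 and 2.00, which overlap fully (difference 0.01). Fgg was 6.25, 7.86, 4.74 and 8.15 against 6.03, 8.50, 8.25, 8.05 and 7.72, so that Ctrl mouse 3 and Ctrl mouse 1 were low but AggE mouse 1 was as well. Its difference of 0.96 (interval -0.04 to 1.96) was not called, and ran from 0.15 to 1.42 over 26 refits with other settings or an array left out. On the slide with both groups the 1 AggE mouse was 1.43 above the mean of 3 Ctrl mice, the low Ctrl mouse 3 among them. Fgb was even, at 7.52, 7.36, 7.13 and 7.33 against 7.72, 7.01, 7.49, 7.32 and 7.75 (difference 0.12). AggE mouse 2 and Ctrl mouse 4 had the highest Fga and Fgg of their groups. Unlike the other mice of 1.5 wks, each was alone of them on its slide and was scanned on another day. Their arrays had 47.7% and 40.9% of all probes well above background, against 15.2% to 24.5% in the others. The part of slide or scan day in this spread was not tested.

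At 4 wks after 10 days Fgg ran from 8.19 to 8.70 among 6 Ctrl mice (median 8.43) and from 6.32 to 8.51 among 6 AggE mice (median 7.47). AggE mice 1, 2 and 3, at 6.56, 6.32 and 6.96, were far below every Ctrl mouse, mice 4 and 5 were just below, and mouse 6 was within the Ctrl range. The difference was -1.04 (SE 0.42, 2.05-fold, interval -1.90 to -0.18), past 2-fold with an unadjusted p of 0.0199 and with a limma adjusted p of 0.157. It was under 2-fold without AggE mouse 1 (-0.87), AggE mouse 2 (-0.82), AggE mouse 3 (-0.95) or Ctrl mouse 3 (-0.99). The Cy-5 intensity of Fgg less its background, which is not normalized between arrays, was 14032 to 52135 among Ctrl (median 18519) and 15302 to 38815 among AggE mice (median 27315), and Cy-5 alone, quantile-normalized, gave a difference of -0.35.

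Fga at 4 wks was between 3.46 and 4.73 among Ctrl (median 3.87) and between 0.03 and 4.74 among AggE mice (median 3.59). The value of 0.03, in AggE mouse 2, came from a spot on a bright patch: its local Cy-3 background was 45659 and its Cy-5 background 2256, both above the spot's own intensity. No other member had a spot with a local background over 10 times the array's median. With that spot the difference was -0.75 (interval -1.79 to 0.30), and without it -0.12. Fgb was 6.04 to 7.39 among Ctrl (median 6.82) and 5.93 to 6.75 among AggE mice (median 6.52), with a difference of -0.33 (interval -0.76 to 0.11).

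**Figure D2:**
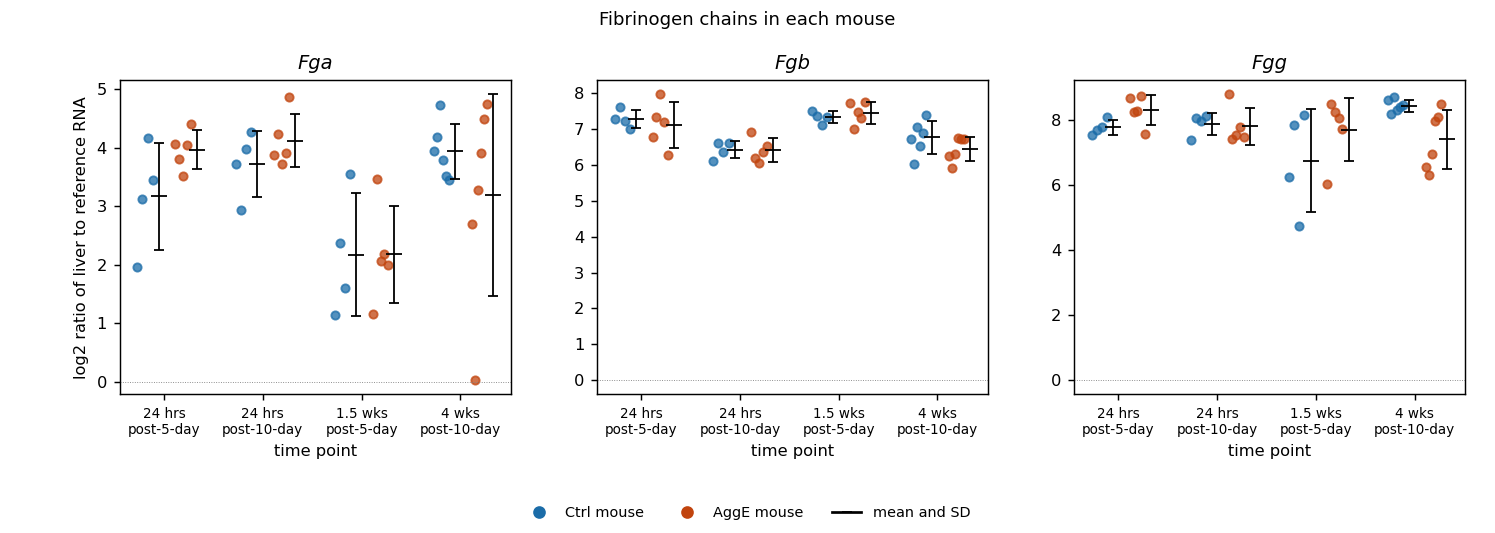
Log2 ratio of liver to reference of Fga, Fgb and Fgg (y axes) in each Ctrl (blue) and AggE (orange) mouse at the 4 time points (x axes), with the mean and SD of each group beside its points. At 4 wks, AggE mice 1, 2 and 3 have Fgg values of 6.56, 6.32 and 6.96 below the Ctrl range of 8.19 to 8.70, and the Fga point at 0.03 is the spot on a bright patch.

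Factor XIII is the transglutaminase that cross-links fibrin, with F13a1 encoding its catalytic A chain and F13b the carrier B chain. F13b rose in the AggE group at 4 wks after 10 days. In Ctrl mice it was 1.20 to 2.92 (median 1.73), and in AggE mice 2.24 to 3.47 (median 2.84). Only 2 of 6 AggE mice were above every Ctrl mouse, since Ctrl mouse 4, at 2.92, lay among the AggE mice, whereas the next Ctrl mouse was at 2.08, below all of them. The difference was 0.99 (SE 0.25, 1.98-fold, interval 0.47 to 1.51, limma adjusted p = 0.0297).

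The call on F13b had limits. Ctrl mice 1 to 3 and Ctrl mice 4 to 6 of 4 wks lay on different slides, and F13b was 0.76 higher on the slide of mice 4 to 6. On that slide the 1 AggE mouse was 0.89 above the mean of the 3 Ctrl mice, and with the slide as a fixed block the difference was 0.89 (adjusted p = 0.255). Its adjusted p was 0.0523 without Ctrl mouse 1, 0.088 without Ctrl mouse 3, 0.0679 without AggE mouse 3 and 0.063 without AggE mouse 5. The reference held little of this transcript, with Cy-3 well above background on 0 of 39 arrays, while the Cy-5 intensity less background was 61 to 282 in Ctrl and 220 to 1217 in AggE mice.

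At the other points F13b did not pass the test. At 24 hrs after 5 days it was 2.48, 2.50, 3.68 and 2.40 in Ctrl and 3.68, 3.40, 2.40, 2.45 and 3.61 in AggE mice, which split into a high and a low set within each group (difference 0.34). After 10 days its 24 hr values were 3.68, 3.03, 3.74 and 2.99 against 3.36, 3.42, 3.82, 3.63 and 4.01, with wide overlap (difference 0.29). At 1.5 wks it was 0.03, 0.51, -0.06 and 0.28 in Ctrl and 0.27, 0.53, 0.10, 0.52 and 0.11 in AggE mice, near 0 in every mouse, and well above background in 2 of 4 and 2 of 5 mice. F13a1, dim in liver and well above background on 1 of 39 arrays, had its highest value, 1.09, in AggE mouse 4 at 24 hrs after 5 days.

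Plasminogen (Plg), the precursor of the fibrin-dissolving protease plasmin, fell in the AggE group at 4 wks. Ctrl mice ran from 6.28 to 7.18 (median 6.83) and AggE mice from 5.42 to 6.54 (median 6.23). AggE mice 1, 2 and 3, at 5.97, 5.42 and 5.69, were below all Ctrl mice, and AggE mice 4, 5 and 6, between 6.48 and 6.54, were within the Ctrl range. The difference was -0.70 (SE 0.20, 1.62-fold, interval -1.11 to -0.28, limma adjusted p = 0.0489), and the other Plg probe gave -0.74 (adjusted p = 0.130).

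This call lay at the limit. It was lost without AggE mouse 2 (Plg adjusted p = 0.160), AggE mouse 3 (0.147), Ctrl mouse 1 (0.0866), Ctrl mouse 3 (0.106), Ctrl mouse 5 (0.0649) or Ctrl mouse 6 (0.0989). On the slide with both groups Plg was 0.75 lower in the 1 AggE mouse than in the mean of 3 Ctrl mice, and with the slide as a fixed block the difference was -0.53 (adjusted p = 0.415). Its Cy-5 intensity less background was 7867 to 36003 in Ctrl and 10685 to 23342 in AggE mice.

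At the earlier points Plg did not pass the test. It was 7.13, 7.24, 6.39 and 6.84 in Ctrl and 6.93, 7.58, 7.27, 7.31 and 6.19 in AggE mice at 24 hrs after 5 days, where 3 of 5 AggE mice were above all Ctrl mice and 1 was below all (difference 0.15). Its 24 hr values after 10 days were 5.77, 6.05, 5.82 and 6.30 against 6.75, 6.10, 5.84, 6.06 and 6.49, where 2 of 5 AggE mice were above all Ctrl mice (difference 0.27). At 1.5 wks it was 7.19, 7.48, 7.24 and 7.56 against 7.73, 7.39, 7.72, 7.49 and 7.74, with 3 of 5 above (difference 0.25). After 10 days, the 24 hr change in Plg lay above the 4 wk change by 0.96 (interval 0.33 to 1.60), with an unadjusted p of 0.00394 and an adjusted p of 0.416.

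**Figure D3:**
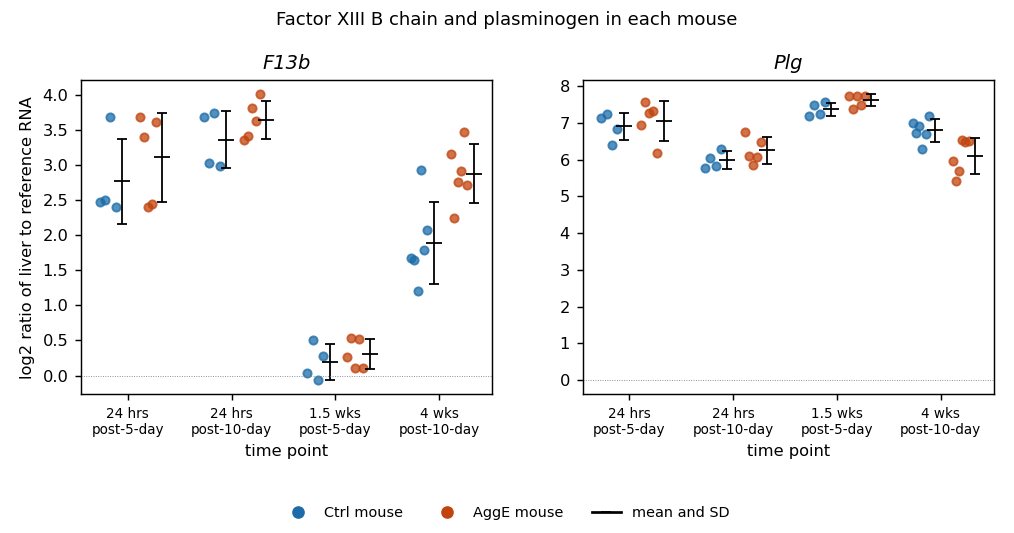
Log2 ratio of liver to reference of F13b and Plg (y axes) in each Ctrl (blue) and AggE (orange) mouse at the 4 time points (x axes), with the mean and SD of each group beside its points. At 4 wks F13b is higher in AggE mice but for 1 Ctrl mouse at 2.92, and Plg falls into AggE mice between 5.42 and 5.97 and AggE mice between 6.48 and 6.54.

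The other fibrinolysis members did not pass the test at any point. Cpb2, the carboxypeptidase that slows fibrinolysis, differed by 0.50, 0.45, 0.41 and -0.46 at 24 hrs after 5 days, 24 hrs after 10 days, 1.5 wks after 5 days and 4 wks after 10 days. Hrg, a plasma glycoprotein that binds plasminogen and heparin, differed by 0.17, 0.32, 0.42 and 0.10. The urokinase receptor Plaur, low in liver and well above background on 34 of 39 arrays, differed by 0.22, 0.12, 0.05 and 0.04. The first of these rests on dim spots, with Plaur well above background in 3 of 4 Ctrl and 1 of 5 AggE mice. The tissue plasminogen activator Plat differed by -0.19 at 4 wks, where all 12 mice were well above background, and is given no size at 24 hrs after 5 days, where 0 of 9 were. For Plau no size is given, as its 2 probes were well above background on 0 and 1 of 39 arrays.

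Of the vitamin K dependent zymogens, which circulate as inactive proteases until cut, 3 of 4 were lower and 1 was higher in AggE mice at 4 wks, with unadjusted p-values at or under 0.05 for F2, F7 and F9 and with none called. F9, whose loss causes haemophilia B, was 3.13 to 4.97 among Ctrl (median 4.06) and 2.32 to 3.58 among AggE mice (median 3.25). Its groups overlapped, with 3 of 6 AggE mice below all Ctrl mice (difference -0.95, interval -1.58 to -0.33, limma adjusted p = 0.0725), and its other probe gave -0.31. The reference held little F9, with Cy-3 well above background on 4 of 39 arrays. Its Cy-5 intensity less background, not normalized between arrays, was 298 to 993 in Ctrl and 393 to 1110 in AggE mice. Prothrombin (F2) was 6.90 to 7.67 among Ctrl (median 7.31) against 5.75 to 7.16 among AggE mice (median 6.70), where AggE mice 1, 2 and 3 were below all Ctrl mice (difference -0.69, adjusted p = 0.113). F7, which starts the extrinsic pathway with tissue factor, was higher instead, at 1.36 to 2.75 (median 1.61) against 1.81 to 3.06 (median 2.67), and 3 of 6 AggE mice were above all Ctrl mice (difference 0.71, adjusted p = 0.130). On the slide with both groups F7 differed by 0.01. F10, the factor that cuts prothrombin, differed by -0.41. At the 3 earlier points the 4 zymogens differed by -0.40 to 0.47.

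Among the contact factors, which start clotting on charged surfaces and release bradykinin, Kng1, a kininogen gene, was 6.70 to 7.59 among Ctrl (median 7.17) and 5.38 to 7.21 among AggE mice (median 6.63) at 4 wks. The same AggE mice, 1, 2 and 3, were the lowest, at 5.38, 5.59 and 6.14, below all Ctrl mice (difference -0.74, limma adjusted p = 0.0983). The other Kng1 probe had a difference of the opposite sign, 0.60 (adjusted p = 0.456). The plasma prekallikrein gene Klkb1 differed by -0.41 at 4 wks, F11 by -0.49, F12 by -0.51 and Kng2, the other kininogen gene of the mouse, by 0.04. At the 3 earlier points these 5 genes differed by -0.70 to 0.52.

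F12, the zymogen that starts the contact pathway, was the best-measured of the 5 members whose unadjusted p was at or under 0.05 at 24 hrs after 5 days. It was 6.87, 7.12, 6.24 and 6.45 in Ctrl and 6.18, 5.90, 6.25, 6.40 and 5.12 in AggE mice, 3 of 5 of which were below all Ctrl mice (difference -0.70, interval -1.30 to -0.10, adjusted p = 0.196). With the 1.5 wk change subtracted, this came to -0.95 (adjusted p = 0.572). The other 4, F8, F13a1, Plau and Habp2, were well above background in 0 of 4 Ctrl mice each, and in 0, 1, 0 and 0 of 5 AggE mice, so that no size is given for F8, Plau and Habp2. F13a1 rests on the 1 bright AggE mouse.

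The cofactors and initiators did not pass the test. F8, the cofactor missing in haemophilia A and made mainly by liver endothelium, had the smallest p of the members at 24 hrs after 5 days (0.00615, adjusted 0.0992) among spots not well above background. Its Ctrl values there were 0.19, 0.20, 0.25 and 0.06 and its AggE values 0.72, 0.05, 0.66, 0.34 and 0.86, where 4 of 5 AggE mice were higher than all Ctrl mice and 1 was lower than all. At 4 wks, when it was well above background in 4 of 6 Ctrl and 5 of 6 AggE mice, it was -0.01 to 0.28 among Ctrl (median 0.17) and 0.10 to 0.76 among AggE mice (median 0.40), with 4 of 6 above (difference 0.24, adjusted p = 0.180). Factor V (F5) differed by 0.11, 0.31, 0.07 and -0.15 at the 4 points in the order above, and von Willebrand factor (Vwf), also endothelial, by -0.36, -0.12, 0.15 and 0.11. Tissue factor (F3) was well above background on 8 of 39 arrays, 3 of 6 Ctrl and 4 of 6 AggE mice at 4 wks among them, where it differed by -0.26, and no size is given at the earlier points. Of 9 endothelial marker genes, 6 were higher and 3 lower in AggE mice at 4 wks, with a median of 0.11 and none called. The log2 of their summed Cy-5 level was 11.8 to 12.3 in Ctrl and 11.6 to 12.5 in AggE mice, and their part in the F8 and Vwf values was not tested.

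Anticoagulants were not called either. Tfpi2, a Kunitz inhibitor of plasmin and clotting proteases, came nearest at 4 wks, with 0.12 to 0.53 among Ctrl (median 0.27) and 0.37 to 1.06 among AggE mice (median 0.64). In 4 of 6 AggE mice it was above all Ctrl mice (difference 0.35, interval 0.13 to 0.58, limma adjusted p = 0.0677). Cy-3 for Tfpi2 was well above background on 2 of 39 arrays. Protein C (Proc), which inactivates factors V and VIII, was 5.75 to 6.96 among Ctrl (median 6.29) and 5.23 to 6.19 among AggE mice (median 5.87), 3 of 6 below (difference -0.59, adjusted p = 0.173). Its cofactor protein S (Pros1) had the only unadjusted p at or under 0.05 at 24 hrs after 10 days. There it was 0.84, 1.19, 1.00 and 1.00 in Ctrl and 1.16, 1.53, 1.51, 1.48 and 1.23 in AggE mice, with 4 of 5 above every Ctrl mouse (difference 0.37, interval 0.09 to 0.66, adjusted p = 1.00). Procr, Tfpi and Proz differed by -0.26, 0.09 and -0.06 at 4 wks, and the other probe of Proz by 0.41. Thbd, which differed by -0.23, was well above background in 1 of 6 Ctrl and 4 of 6 AggE mice, and the other Tfpi probe on 1 of 39 arrays. Over the 7 anticoagulants the differences at the earlier points lay between -0.41 and 0.37, with Thbd and Tfpi well above background in at most 1 mouse of a group there.

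In the vitamin K cycle, which carboxylates the zymogens so that they bind calcium, Ggcx, the carboxylase, was 0.27 to 0.66 among Ctrl (median 0.47) and 0.48 to 0.98 among AggE mice (median 0.84) at 4 wks. In 5 of 6 AggE mice it was above all Ctrl mice, and AggE mouse 4, at 0.48, was within the Ctrl range (difference 0.33, limma adjusted p = 0.142). Vkorc1, the reductase that warfarin blocks, differed by -0.36, -0.12, -0.10 and 0.13 at the 4 points in the order above.

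Habp2, a protease that can activate factor VII, was 0.04 to 0.24 among Ctrl (median 0.09) and 0.13 to 0.59 among AggE mice (median 0.29) at 4 wks, well above background in 2 of 6 and 3 of 6 (difference 0.19, limma adjusted p = 0.145). Hgfac, the activator of hepatocyte growth factor, was the only member whose groups did not overlap at any point, and is named for that, after its values were seen. Groups did not overlap in 7.69% of all probes at 24 hrs after 5 days, and in 1.71%, 0.961% and 1.61% at the later comparisons in the order above, beside 1 of 36 members and then 0. In the 24 hr groups after 5 days it was 3.46, 4.16, 4.24 and 4.36 in Ctrl and 4.55, 4.51, 4.71, 4.50 and 4.47 in AggE mice. All 5 AggE mice were above all 4 Ctrl mice, but the difference of 0.49 was small against its spread in other groups (interval -0.37 to 1.35, adjusted p = 0.63), such as the 2.24 to 4.48 of Ctrl mice at 4 wks. The thrombin receptor F2r was at -1.34, -1.71, -1.24 and -1.19 in Ctrl and -1.52, -1.90, -1.58, -1.38 and -1.26 in AggE mice at 1.5 wks, its comparison with the smallest p (difference -0.15, adjusted p = 0.9999).

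In the 3 tests of 1 change against another, 0 members were called. Taking the 24 hr change after 10 days from that after 5 days called 0.027% of all probes, and 0 members were at or under 0.05 before adjustment, where 6.78% of all probes were. Taking the 1.5 wk change from the 24 hr change after 5 days called 0.0695% of all probes and had 1 such member, F12, beside 7.74% of all probes. Taking the 4 wk change from the 24 hr change after 10 days called 0.054% of all probes and had 3 such members, Pros1, Tfpi2 and Plg, beside 8.82% of all probes, which is near the same share.

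Most of the bright members were lower at 4 wks, with a limit for bright drawn after the values were seen. Of the 11 members with a mean Cy-5 intensity of 1000 or more (Fgb, Fgg, F2, F10, F12, Kng1, Proc, Plg, Cpb2, Hrg and Vkorc1), 9 were lower in AggE mice, with a median of -0.51, and of the 25 dimmer ones 13 were lower, with a median of -0.02. Most bright probes on the whole array were lower as well. Of all 757 probes as bright, 71.9% were lower, with a median of -0.25, against 45.0% of the 25146 dimmer probes, with a median of 0.01.

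Mouse by mouse, the median of the 11 bright members against the Ctrl mean was -1.08, -1.13 and -0.67 in AggE mice 1, 2 and 3, and -0.03, -0.21 and -0.04 in AggE mice 4, 5 and 6. In Ctrl mice it ran from -0.40 to 0.38, so AggE mice 1, 2 and 3 stood below all Ctrl mice and the other AggE mice did not. The 746 other bright probes had medians of -0.44, -0.37 and -0.31 in AggE mice 1, 2 and 3, of -0.06, -0.12 and -0.03 in AggE mice 4, 5 and 6, and of -0.15 to 0.13 in Ctrl mice. AggE mouse 1 lay on a slide with Ctrl mice 4 to 6, and AggE mice 2 and 3 lay on a slide with AggE mice 4 and 5. All 7 hepatocyte marker genes on the array were also lower in AggE mice at 4 wks, with a median of -0.28 and 1, Tdo2, called (-0.90, limma adjusted p = 0.0387). They were well above background in every mouse, with a log2 summed Cy-5 level of 18.3 to 18.7 in Ctrl and 18.0 to 18.4 in AggE mice. Of 6 macrophage markers 4 were lower, with a median of -0.35 and 0 called, and their summed level was 12.0 to 13.2 in Ctrl and 11.8 to 12.6 in AggE mice. All 4 biliary markers were lower, with a median of -0.18 and 1, Epcam, called, though Epcam was well above background on 1 of 39 arrays, at a summed level of 9.11 to 9.73 and 9.20 to 9.62. Stellate cell and fibroblast markers were lower in 4 of 6 (median -0.13) and neutrophil markers in 4 of 7 (median -0.0015). Platelet, erythroid and pancreas markers were higher in 5 of 8, 4 of 5 and 3 of 4, with medians of 0.05, 0.06 and 0.10, as were 6 of 9 endothelial markers. The part of signal brightness, slide or these cell types in the lower values of Fgg, Plg and the other bright members was not tested.

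**Figure D4:**
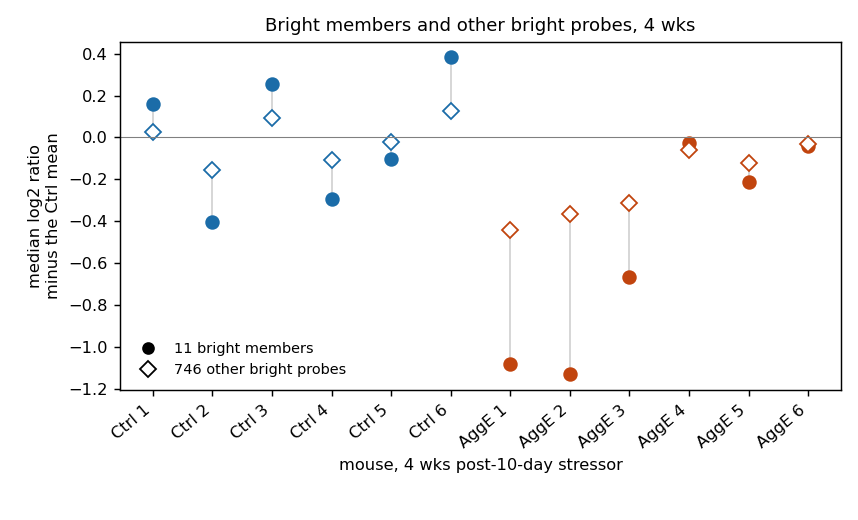
Median log2 ratio minus the Ctrl mean (y axis) of the 11 bright members (filled) and of the 746 other probes as bright (open) in each mouse at 4 wks after 10 days (x axis), blue for Ctrl and orange for AggE. AggE mice 1, 2 and 3 lie at -1.08, -1.13 and -0.67 for the members and at -0.44, -0.37 and -0.31 for the other probes.

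Of 13 other haemostasis genes listed beside the members, 1, Fgl1, was called at each 24 hr point (3.25% and 0.0734% of all probes were), 0 at 1.5 wks, and 1, Vkorc1l1, a relative of Vkorc1, at 4 wks (0.27, adjusted p = 0.0404, beside 3.42% of all probes). Platelet transcripts were scarce in these livers, with 5 to 7 of 8 platelet markers well above background in no mouse of each group at the earlier points, and in no mouse for 1 of 8 in Ctrl and 3 of 8 in AggE mice at 4 wks.

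How far the calls at 4 wks rest on the processing is seen by refitting. Over 29 alternative settings, left-out arrays included, F13b was higher in AggE mice in 29 (0.44 to 1.74) and called in 16, and Plg was lower in 29 (-1.04 to -0.23) and called in 11. Fgg was lower in 29 (-1.72 to -0.19) and called after adjustment in 0. F9, not called as reported, was lower in 28 of the 29 (-1.90 to 0.13) and called in 6, Kng1 was called in 3, Tfpi2 in 2 and F2r in 1. The count of members called ran from 0 to 5. Left-out arrays aside, the calls over all probes ran from 6 to 2477.

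**Figure D5:**
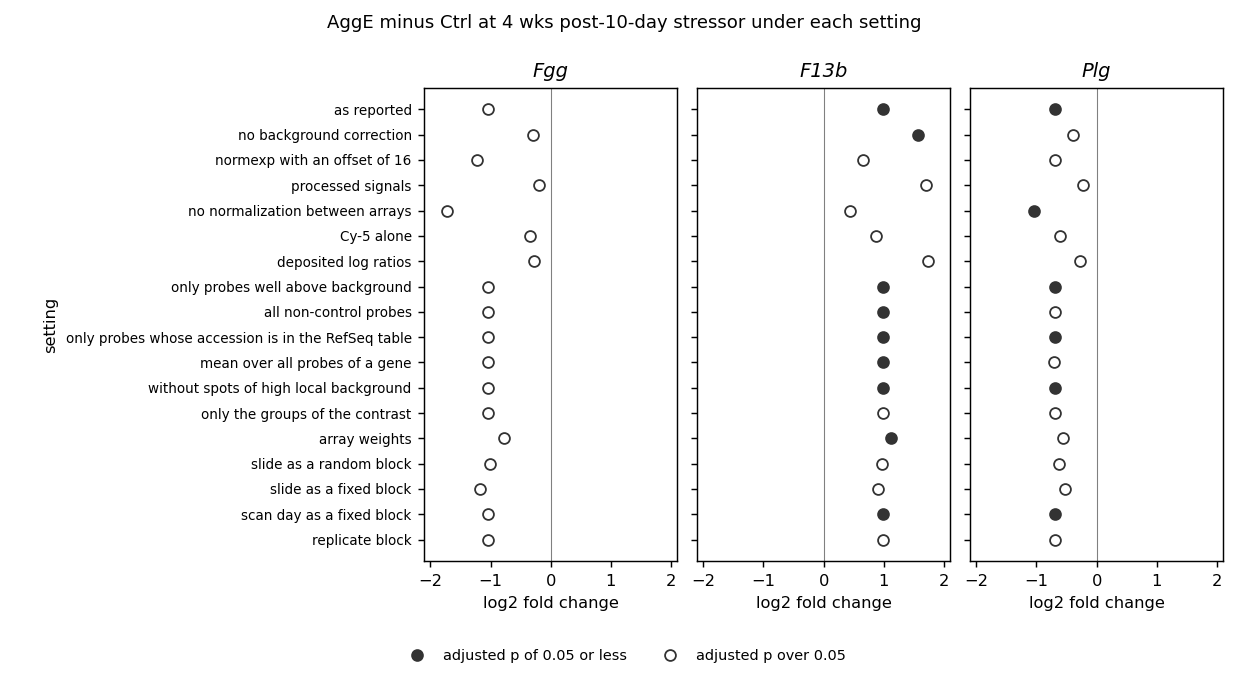
Log2 fold change, AggE minus Ctrl, at 4 wks after 10 days (x axes) of Fgg, F13b and Plg as reported (top row) and under 17 other settings of the processing or the fit (rows), left-out arrays not shown. Filled points have a limma adjusted p of 0.05 or less, which 8 of the 17 have for F13b, 5 for Plg and 0 for Fgg, and every point keeps its side of 0.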

How the data were processed

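Liver RNA (Cy-5) and a reference RNA (Cy-3) were hybridized to 39 arrays, 1 per mouse. The intensity values deposited by the authors are, per spot and channel, the median pixel brightness inside the spot and around it, as read by Agilent Feature Extraction (version 11.5.1.1 per the labels), not normalized. The processed intensity signals, deposited too, had been background-corrected and dye-normalized by the authors' software, and the deposited log10 ratios of Cy-5 over Cy-3 were made from them. Mice were grouped by the label of the liver channel, though titles of 6 mice at 1.5 wks carry a 10 and descriptions of 5 mice at 24 hrs begin with 1 day.

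From the median intensities, normexp (offset 50), loess within arrays and quantile normalization between arrays gave log2 ratios, with limma 3.58.1, statmod 1.5.0 and version 1.17.8 of data.table in R 4.3.3. Outlier spots (0.295% to 1.46% per array) were set to missing, and 25903 RefSeq probes were tested in 1 fit with a mean for each of the 8 groups. The moderated t was adjusted by Benjamini-Hochberg over all probes. The procedure was tested on simulated data. Fold changes of dim genes are understated by the offset. The number of arrays limits the precision.

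Alternatives changed the background correction, the normalization, the probes, the fit, the batch terms and the arrays. Accessions were matched to RefSeq symbols of the GRCm38.p6 assembly. Mice of a group are numbered by the labels. Values per mouse were given for the fibrinogen chains, called members and, per role without a call, the member with the smallest p, with some members added after their values were seen. The members and the lists were chosen with earlier results of these data known. Results for 1 further list of haemostasis genes are not reported here.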

Additional observations from a re-analysis of the deposited data

Results flagged for a closer look

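Among 12 members in 8 groups each, Dixon's test at 95% set apart 5 values in 96 groups of mice, where chance gives about 1 in 20, or 4.8. Fgg was 8.80 in AggE mouse 1 at 24 hrs after 10 days, against 7.43 to 7.77 in the other AggE mice. F8 was 0.32 in AggE mouse 3 at 1.5 wks, against -0.02 to 0.08 in the others. F13b was 3.68 in Ctrl mouse 3 at 24 hrs after 5 days, against 2.40 to 2.50. Ggcx was 0.20 in Ctrl mouse 4 at 24 hrs after 10 days, against 0.64 to 0.71, and 0.48 in AggE mouse 4 at 4 wks, against 0.80 to 0.98.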

How the results depend on the processing

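Members called at 4 wks after 10 days numbered 2 as reported. The count was 0 with the processed signals, with Cy-5 alone, with the deposited log ratios, with a fit of the 2 groups alone and with slides taken as a random block, and 1 with no background correction, with an offset of 16, with all non-control probes and with the mean over the probes of a gene. It was 5 (F2, F9, Kng1, Proc and Plg) with no normalization between arrays, and with Aquantile, which leaves those log ratios as they are and is counted as the same setting, and 4 (F12, Kng1, Tfpi2 and F2r) with slides taken as a fixed block. Over all probes, calls at 4 wks numbered 886 as reported. They numbered 10 with the processed signals, 6 with Cy-5 alone and 128 with the deposited log ratios. The 2 groups alone gave 96, and slides as a random block 12. There were 595 with no background correction, 290 with an offset of 16, 883 with all non-control probes and 604 with the mean over the probes of a gene. With no normalization between arrays there were 2477, and with slides as a fixed block 981. Leaving out arrays gave 0 to 4 members called, with 0 without AggE mouse 3, Ctrl mouse 1 or Ctrl mouse 3, and 4 without Ctrl mouse 2 (F7, F9, F13b and Plg). At 24 hrs after 5 days the 0 calls became 1 with an offset of 16 (F13a1), 1 with Cy-5 alone (Kng1), 2 with the deposited log ratios (Klkb1 and Procr), and 0 to 1 on leaving out arrays (F8 without AggE mouse 2). At 24 hrs after 10 days array weights gave 1 (Pros1). Over all probes, calls at 24 hrs after 5 days numbered 841 as reported, 1457 with an offset of 16, 1194 with Cy-5 alone and 240 with the deposited log ratios. After 10 days they numbered 19 as reported and 90 with array weights. In every other setting these 2 comparisons had 0 members called, as had the comparison at 1.5 wks and the 3 differences between changes in all settings. The causes were not tested.

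With the replicate number as a block, the count at 4 wks was 1 (F9), beside 670 of all probes. F13b and Plg had limma adjusted p-values of 0.0510 and 0.0647 there. The numbers do not pair the mice: with each group's mean subtracted, same-numbered mice correlated by -0.45 to 0.50 over 18 pairs, 5 of them over 0.1. Leaving out spots of high local background and keeping only accessions in the RefSeq table were chosen after seeing the data. Few mice per group, slides that separate the groups at 24 hrs and dim spots limit what can be seen, and 17 of 36 members fell to background on 1 array or more.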
